A study of Mus musculus with 12 samples.

Results

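A set of 8 secreted matricellular genes was examined in C22 cells, chosen by gene symbol among the 23282 genes of the count tables. They are Postn (periostin), Tgfbi (transforming growth factor beta induced), Tnc (tenascin C), Thbs1, Thbs2 and Thbs3 (thrombospondins), Sparc and Spp1 (osteopontin). All 8 members had a row in every library, and 7 of them passed the filter on low counts that 12425 genes passed. Tgfbi did not pass and was not tested. C22 is a mouse lung club cell line cloned from H-2Kb-tsA58 transgenic mice, whose temperature-sensitive large T antigen allows growth under interferon-γ and is switched off when the cells differentiate. Every group was differentiated C22 cells starved of serum before the treatment. The 4 groups of 3 libraries were cells with the negative control (NC), NC cells given 20 ng/ml TGF-β1 for 24 hours (NC + TGF-β1), cells with siPDCD5 (siPdcd5), and siPDCD5 cells given the same TGF-β1 (siPdcd5 + TGF-β1). Because the line is a single clone and no separate cultures are named for the replicates, the p-values measure the spread between these libraries, which may be technical.

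Matricellular proteins are secreted into the extracellular matrix without being its main structural fibres. They bind collagens, fibronectin, cell surface receptors such as integrins, and growth factors or their proteases, and so link the matrix to signalling. Several are low in resting tissue and rise in wound repair and fibrosis, and TGF-β1, which acts through SMAD transcription factors, is a known inducer of several of them. Periostin and TGFBI share fasciclin domains, tenascin C forms hexamers that modulate adhesion to fibronectin, and thrombospondins 1 and 2 form trimers that bind CD47, CD36 and integrins. Thrombospondin 1 also activates latent TGF-β. SPARC binds collagen and calcium, and osteopontin is a ligand of integrins and CD44.

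The promoters of Postn, Tnc and Spp1 are shown because these genes gave 3 different patterns. They are the 250 bases before the RefSeq transcript start (GRCm38.p6), printed 5′ to 3′ on the gene's strand, with searched motifs in capitals. The motifs were the SMAD palindrome GTCTAGAC, the SMAD-binding element CAGACA, the AP-1 element TGAGTCA, the KLF and SP element CACCC and the TATA box TATAAA, sought on both strands, with no overlap among the matches printed. The Postn promoter lies at chr3:54360857-54361106 on the plus strand, that of Tnc at chr4:64047016-64047265 on the minus strand, and that of Spp1 at chr5:104434861-104435110 on the plus strand.
Postn: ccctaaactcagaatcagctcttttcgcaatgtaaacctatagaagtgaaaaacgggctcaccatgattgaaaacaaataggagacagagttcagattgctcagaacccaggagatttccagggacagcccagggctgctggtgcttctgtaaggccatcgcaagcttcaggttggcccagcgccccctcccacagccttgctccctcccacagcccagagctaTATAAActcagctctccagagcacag
Tnc: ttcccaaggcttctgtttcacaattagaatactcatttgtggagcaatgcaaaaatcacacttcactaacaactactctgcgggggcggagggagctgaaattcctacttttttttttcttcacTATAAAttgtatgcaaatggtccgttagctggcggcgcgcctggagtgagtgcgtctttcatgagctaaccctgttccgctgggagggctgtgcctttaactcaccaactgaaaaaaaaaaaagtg
Spp1: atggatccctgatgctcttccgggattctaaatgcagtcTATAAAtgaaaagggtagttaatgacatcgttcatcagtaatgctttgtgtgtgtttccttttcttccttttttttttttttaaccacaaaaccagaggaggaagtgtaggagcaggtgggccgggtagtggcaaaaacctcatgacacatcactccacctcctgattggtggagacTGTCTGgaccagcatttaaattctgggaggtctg

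The Postn window holds TATAAA from 26 bases before the start, the Tnc window holds it from 126 bases before, and the Spp1 window holds it from 211 bases before. The Spp1 window also holds CAGACA on the opposite strand, from 34 bases before the start, where it reads in capitals as its reverse complement. Among 32851 RefSeq promoters of the same length, 12.4% held the TATA box, 17.1% the SMAD-binding element, 4.46% the AP-1 element, 52.0% the KLF and SP element and 0.167% the palindrome. RefSeq gave 10 promoters for 7 members, and Thbs1 had no entry. None of the 10 windows held the palindrome or the AP-1 element. CAGACA occurred in a window of Tnc, Thbs2, Sparc and Spp1, that of Tnc being a second RefSeq window that is not printed, and the remaining windows, those of Postn, Tgfbi and Thbs3 among them, held none. The matches are descriptions of these letters.

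Sequencing gave 12809857 to 17714828 counts per library. The floor of a library, set at 3 counts, was 0.165 to 0.239 CPM (counts scaled to library size, with TMM factors). Replicates of a group differed by more than sampling noise, since the chi-square per degree of freedom between replicates was at least 4.40. The largest was 62.7, between NC + TGF-β1 replicates 2 and 3, and Rn45s, the 45S ribosomal RNA precursor, took 3.95% and 6.48% of their counts. The targeted gene, Pdcd5, lay between 65.1 and 73.5 CPM in NC, 66.3 and 69.7 in NC + TGF-β1, 20.0 and 22.1 in siPdcd5, and 21.8 and 26.3 in siPdcd5 + TGF-β1, so every siPDCD5 library was below every NC library. Its log2 fold change was -1.69 ± 0.098 (SE) without TGF-β1 and -1.49 ± 0.098 with it. Markers of club cells were mostly absent. Scgb3a2, Cyp2f2 and Foxa1 had 0 counts in the 12 libraries, Scgb1a1 and Nkx2-1 0 or 1, and Foxa2 alone, at 49.1 to 213 CPM, made up most of the summed club cell list. The 12 genes of that list summed to 162 to 185 CPM in NC and 51.5 to 52.9 in NC + TGF-β1. The sums were higher in siPDCD5 cells, at 199 to 216 CPM in siPdcd5 and 67.6 to 78.5 in siPdcd5 + TGF-β1.

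**Figure D1:**
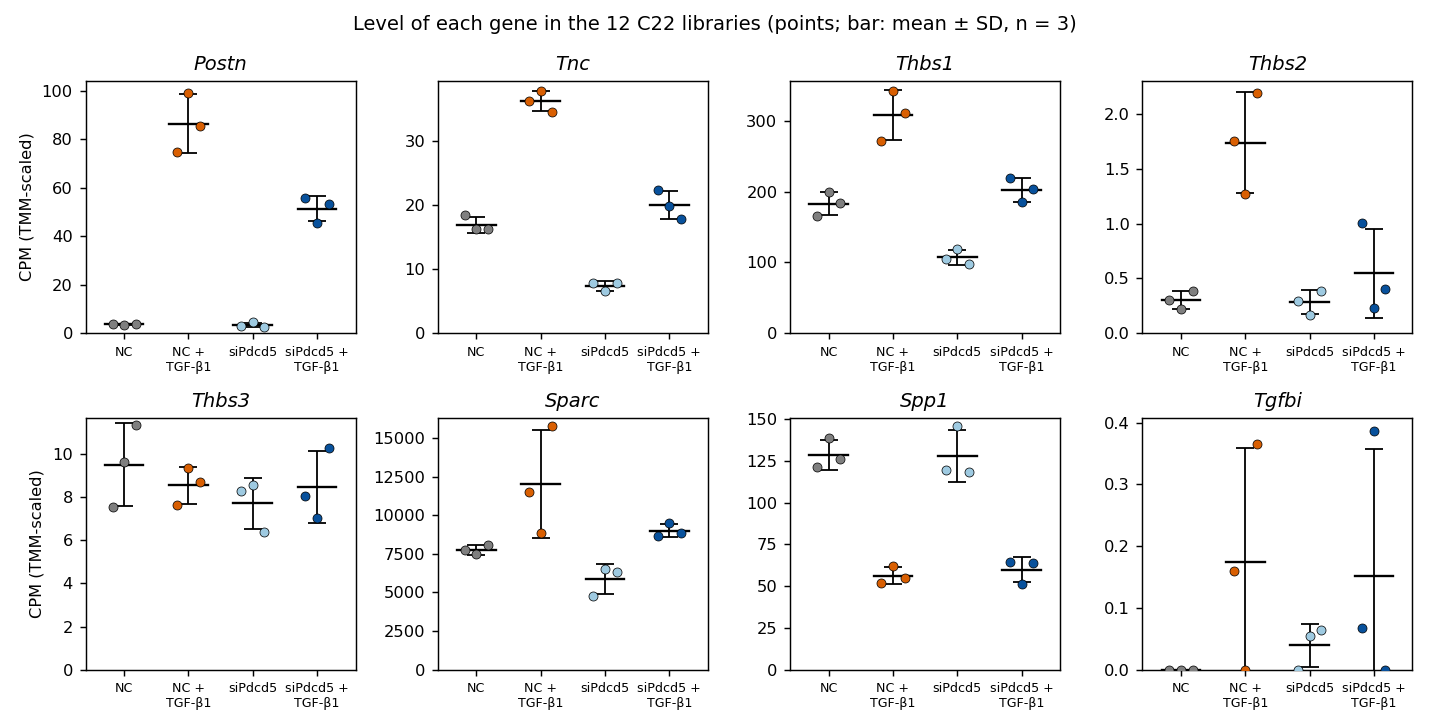
CPM of the 8 genes in each of the 12 libraries (points; horizontal bar and whiskers, mean ± SD of 3 libraries), on linear axes from 0 that differ between panels. Postn went from about 3.58 CPM in NC to 86.5 in NC + TGF-β1, Spp1 went from 129 to 56.3, and Tgfbi stayed at or under 5 counts.

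Periostin, the fasciclin-domain protein that binds collagen and integrins, gave the largest response of the tested members to TGF-β1. Postn (chr3:54361109-54391037, plus strand, GENCODE M21 on GRCm38) stood at 3.65, 3.41 and 3.68 CPM in NC and at 74.8, 99.2 and 85.5 in NC + TGF-β1. It stood at 3.03, 4.47 and 2.64 CPM in siPdcd5 and at 55.6, 45.4 and 53.2 in siPdcd5 + TGF-β1. The untreated groups overlapped, and every treated NC library was above every treated siPDCD5 library. Libraries also did not overlap in 18.9% of all genes tested between the treated groups and in 23.1% between the untreated groups. For TGF-β1 that share was 29.6% in NC cells and 36.1% in siPDCD5 cells. The same shares apply to the members below. In NC cells the log2 fold change was 4.59 ± 0.18 (SE; 24.1-fold; adjusted p = 1.5e-09), the 7th highest of the 12425 genes tested. In siPDCD5 cells it was 3.91 ± 0.18 (15.0-fold; adjusted p = 6.1e-09). Between the treated groups Postn was lower in siPDCD5 cells, with a log2 fold change of -0.75 (95% interval -1.06 to -0.45; adjusted p = 0.0161). Without TGF-β1 the difference was -0.07 (-0.51 to 0.38; adjusted p = 0.921). The lower level in treated siPDCD5 cells lost its call with any 1 library of that group left out: the adjusted p was 0.0566 without replicate 1, 0.115 without replicate 2 and 0.0726 without replicate 3, with log2 values of -0.81, -0.67 and -0.78. The call was also lost with quantile normalization and limma (adjusted p = 0.0569) and with the 6 libraries alone (0.0620).

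Tgfbi, the other fasciclin-domain gene, was close to undetected. NC libraries held 0, 0 and 0 counts, NC + TGF-β1 2, 0 and 5, siPdcd5 0, 1 and 1, and siPdcd5 + TGF-β1 1, 5 and 0. The treated and untreated libraries overlapped in both arms. Summed counts were 7 against 0 for TGF-β1 in NC cells, a ratio whose exact 95% interval starts at 1.44, and 6 against 2 in siPDCD5 cells, where that interval runs from 0.593 to 33.6. Those intervals cover counting error only and not the spread between libraries, and a count of 0 allows a level of up to 0.165 to 0.239 CPM, by library.

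Tenascin C, a modulator of adhesion to fibronectin, changed with both factors and took an intermediate level where they met. Tnc (chr4:63959785-64047015, minus strand) was at 18.3, 16.2 and 16.2 CPM in NC, 36.2, 37.7 and 34.5 in NC + TGF-β1, 7.75, 6.51 and 7.73 in siPdcd5, and 22.3, 19.7 and 17.8 in siPdcd5 + TGF-β1. The siPdcd5 libraries were the lowest and the NC + TGF-β1 libraries the highest, with no overlap with any other group. The NC and siPdcd5 + TGF-β1 libraries overlapped. TGF-β1 raised Tnc by 1.10 ± 0.12 log2 in NC cells (2.14-fold; adjusted p = 1.41e-05) and by 1.45 ± 0.13 in siPDCD5 cells (2.73-fold; adjusted p = 2.03e-06). Knockdown lowered it, with log2 fold changes of -1.21 ± 0.13 without TGF-β1 (adjusted p = 1.42e-04) and -0.86 ± 0.12 with it (adjusted p = 0.00163). Tnc lay 0.24 log2 above NC in siPdcd5 + TGF-β1 (95% interval -0.02 to 0.50; adjusted p = 0.202). It is the member whose fall in treated siPDCD5 cells passed the threshold under all 13 alternatives, at an adjusted p of at most 0.0292. The other-strand transcript 8030451A03Rik overlaps Tnc but not its 3′ end. Without strand information, reads of the 2 genes that fall in the overlap cannot be told apart.

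The thrombospondins differed among themselves. Thrombospondin 1, the CD47 and latent TGF-β binding member, moved as Tnc did. Thbs1 (chr2:118111876-118127133, plus strand) was at 166, 199 and 184 CPM in NC, 273, 343 and 312 in NC + TGF-β1, 105, 119 and 98.2 in siPdcd5, and 219, 185 and 204 in siPdcd5 + TGF-β1. The order of levels was siPdcd5, then NC and siPdcd5 + TGF-β1 overlapping, then NC + TGF-β1. TGF-β1 raised it by 0.75 ± 0.11 log2 in NC cells (1.69-fold; adjusted p = 2.21e-04) and by 0.92 ± 0.11 in siPDCD5 cells (1.89-fold; adjusted p = 4.28e-05). Knockdown lowered it, with log2 fold changes of -0.77 ± 0.11 without TGF-β1 (adjusted p = 0.00168) and -0.61 ± 0.11 with it (adjusted p = 0.0122). The last call was lost without siPdcd5 + TGF-β1 replicate 2 (log2 -0.55, adjusted p = 0.0873), without replicate 3 (-0.61, 0.0654) and with the 6 libraries alone (-0.60, 0.0792). Between siPdcd5 + TGF-β1 and NC the log2 difference was 0.15 (95% interval -0.09 to 0.38).

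Thbs2 (chr17:14665500-14694235, minus strand), the other trimeric thrombospondin, was read at 4, 3 and 5 counts in NC and 22, 17 and 30 in NC + TGF-β1. In siPdcd5 it gave 4, 3 and 6 counts and in siPdcd5 + TGF-β1 15, 3 and 6. The treated NC libraries were above the libraries of the 3 other groups, while the last pair of groups overlapped. Thbs2 passed the filter on low counts through the NC + TGF-β1 libraries, the group where it was highest. The edgeR log2 fold change for TGF-β1 was 2.49 ± 0.57 in NC cells (adjusted p = 0.00428), which the 12 alternatives that could test it kept, at adjusted p up to 0.0268. With no filter the edgeR adjusted p in NC cells was 0.00702. Summed counts gave a ratio of 5.76 there (exact 95% interval 3.09 to 11.7, counting error only). In siPDCD5 cells the ratio was 2.04 (0.998 to 4.36) and the adjusted p was 0.298. Between treated groups Thbs2 differed by -1.63 log2 (95% interval -2.67 to -0.59; adjusted p = 0.114) and did not pass the threshold. The ratio of summed counts there was 0.322 (0.194 to 0.520), which covers counting error only. Replicate 1 of siPdcd5 + TGF-β1 held 15 of the 24 counts of its group, and without it the TGF-β1 response in siPDCD5 cells was 0.21 log2 (adjusted p = 0.878) and the difference between treated groups -2.40 (adjusted p = 0.0603).

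Thbs3 (chr3:89215180-89226837, plus strand), a pentameric thrombospondin, showed no detectable change. It was at 7.53, 9.64 and 11.4 CPM in NC, 7.64, 9.34 and 8.70 in NC + TGF-β1, 8.27, 8.55 and 6.37 in siPdcd5, and 8.05, 7.02 and 10.3 in siPdcd5 + TGF-β1, with all groups overlapping. The log2 fold change for TGF-β1 in NC cells was -0.15, with an interval of -0.57 to 0.27. The gene lies wholly inside Mtx1, a mitochondrial outer membrane gene on the other strand that covers its 3′ end, so its counts are uncertain. Mtx1 itself had a log2 fold change of -0.05 in NC cells.

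Sparc (chr11:55394500-55423183, minus strand), the collagen-binding protein, was abundant, at 0.503% to 1.44% of a library's counts. It was at 7744, 7464 and 8101 CPM in NC, 11533, 8825 and 15762 in NC + TGF-β1, 4753, 6516 and 6337 in siPdcd5, and 8649, 9470 and 8867 in siPdcd5 + TGF-β1. Each treated library was above each untreated library of its arm, where 29.6% of all genes in NC cells and 36.1% in siPDCD5 cells did not overlap. The NC + TGF-β1 libraries had the widest spread, 12040.3 ± 3496 CPM (SD). Rn45s took 5.18%, 3.95% and 6.48% of the counts of those 3 libraries, in the same order as Sparc, and its part in the result was not tested. TGF-β1 raised Sparc by 0.63 ± 0.17 log2 in NC cells (1.55-fold; adjusted p = 0.0207) and by 0.62 ± 0.17 in siPDCD5 cells (1.53-fold; adjusted p = 0.0240).

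Both calls on Sparc were lost when some single libraries were left out, mostly with little change in the fold. In NC cells the log2 fold changes were 0.63, 0.60 and 0.65 without NC replicates 1, 2 and 3 (adjusted p 0.0709, 0.0834 and 0.0618) and 0.63 with the 6 libraries alone (0.0537). Leaving out NC + TGF-β1 replicate 3 moved the value more, to 0.40 (0.0821). In siPDCD5 cells it was 0.49 without siPdcd5 replicate 1 (0.0692), and 0.65, 0.58 and 0.63 without siPdcd5 + TGF-β1 replicates 1, 2 and 3 (0.0558, 0.0836 and 0.0620). Quantile normalization with limma-trend gave 0.32 there, a call that stayed past the threshold. Between treated groups Sparc differed by -0.42 log2 (95% interval -0.79 to -0.05; adjusted p = 0.288) with overlapping libraries. Leaving out NC + TGF-β1 replicate 2 gave -0.60 at an adjusted p of 0.0252, and leaving out replicate 3 gave -0.18 at 0.580. Without TGF-β1 the siPDCD5 libraries were all lower, at a log2 fold change of -0.40 that did not pass the threshold (-0.77 to -0.04; adjusted p = 0.262). Quantile normalization with limma-trend gave -0.07 there (adjusted p = 0.707), and 23.1% of all genes tested had libraries that did not overlap in this comparison.

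Spp1, the integrin and CD44 ligand, was the only member that fell with TGF-β1. Spp1 (chr5:104435118-104441050, plus strand) was at 121, 139 and 126 CPM in NC, 51.8, 61.8 and 55.2 in NC + TGF-β1, 120, 146 and 119 in siPdcd5, and 64.4, 51.4 and 63.7 in siPdcd5 + TGF-β1. The treated libraries of both arms overlapped, and each was below each untreated library. The log2 fold change was -1.19 ± 0.12 in NC cells (2.29-fold lower; adjusted p = 5.58e-06) and -1.10 ± 0.12 in siPDCD5 cells (2.14-fold lower; adjusted p = 1.38e-05). Knockdown differences were -0.01 (95% interval -0.25 to 0.24) without TGF-β1 and 0.09 (-0.16 to 0.34) with it. The transcript Gm42793 of the same strand overlaps its 5′ part.

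Over the list, TGF-β1 in NC cells changed 6 of the 7 tested members, 5 higher and 1 lower, where 8.57% of all genes tested were higher and 6.77% lower. Thbs2, among the 5 higher, passed the filter through the treated NC libraries. In siPDCD5 cells TGF-β1 left 4 members higher and 1 lower, against 8.50% and 7.61% of all genes. Knockdown without TGF-β1 left 0 members higher and 2 lower, Tnc and Thbs1, against 0.901% and 2.54%. With TGF-β1 it left 0 higher and 3 lower, Postn, Tnc and Thbs1, against 0.330% and 1.22%. Against NC, siPdcd5 + TGF-β1 had 1 member higher, Postn, and 1 lower, Spp1, against 8.92% and 9.05%. The median log2 fold change of the 7 members was 0.75 in treated NC cells, where that of all genes was 0.0050, and -0.61 between the treated groups, where it was -0.017. The members and the lists below were chosen with earlier results of these data known. Their counts and medians are therefore descriptions and no test against all genes. Because RNA came from whole cultures, a lower level in fewer cells and less RNA per cell cannot be told apart.

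**Figure D2:**
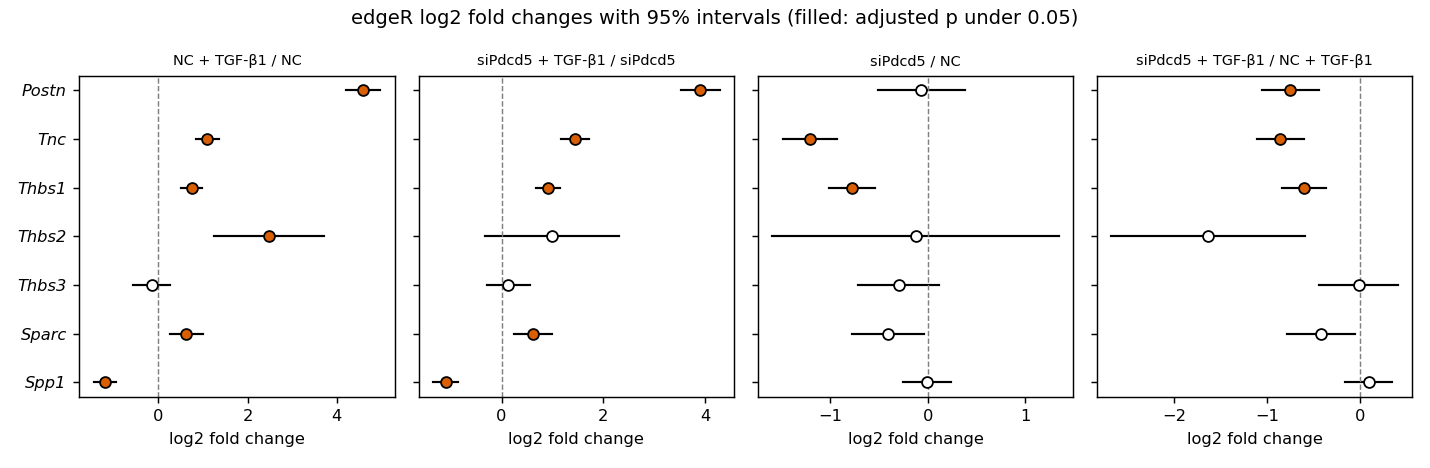
edgeR log2 fold changes of the 7 tested members with 95% intervals in 4 comparisons, filled where the adjusted p was under 0.05; the x axes differ between panels. TGF-β1 raised Postn, Tnc, Thbs1 and Sparc and lowered Spp1 in both arms, and knockdown left Thbs3 and Spp1 at differences whose intervals span 0.

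The difference of the 2 responses to TGF-β1 passed the threshold for 0 members and for 0% of all genes. At an unadjusted p under 0.05 there were 638 of the 12425 genes, close to the share of 0.05 that passes where no gene differs. Postn was the 1 member among them, and DESeq2 called 13 genes and no member. The Postn response in siPDCD5 cells minus that in NC cells was -0.68 log2 (95% interval -1.22 to -0.14; adjusted p = 0.949), and -0.41 without siPdcd5 replicate 2. In CPM it rose by 82.9 ± 7.05 (SE) in NC cells and by 48.0 ± 3.11 in siPDCD5 cells. Tnc goes the other way on the log2 scale and not in CPM. Its log2 rise was larger in siPDCD5 cells by 0.35 (-0.02 to 0.72; adjusted p = 0.951), while its rise in CPM was 12.6 ± 1.36 against 19.2 ± 1.16 in NC cells. For Thbs1 the difference was 0.16 log2 (-0.17 to 0.50), for Sparc -0.02 (-0.53 to 0.50), for Spp1 0.10 (-0.26 to 0.45), for Thbs3 0.28 (-0.31 to 0.88) and for Thbs2 -1.51 (-3.31 to 0.30), or -2.27 without siPdcd5 + TGF-β1 replicate 1.

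**Figure D3:**
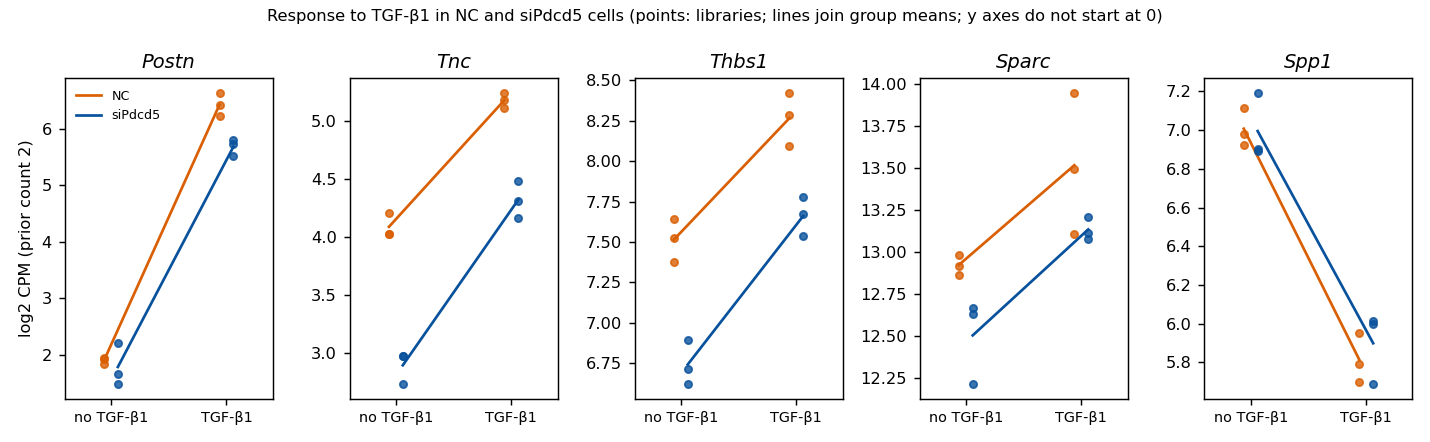
log2 CPM (prior count 2) of 5 members without and with TGF-β1, as points for single libraries and lines between group means, in NC and siPDCD5 cells; y axes do not start at 0. The siPDCD5 line starts lower for Tnc and Thbs1 and runs alongside the NC line, with differences in log2 response of 0.35 and 0.16.

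The receptors of these proteins were measured beside them. Of 23 receptor genes 14 were tested, and TGF-β1 in NC cells raised 7 and lowered 1, Egfr, against 8.57% and 6.77% of all genes. Itgb3 and Itgb5, the integrin chains that pair with αv to bind periostin and osteopontin, rose by 1.72 and 1.72 log2, Cd44 by 1.13 and Itga5, a chain of the fibronectin receptor, by 1.01. In treated cells knockdown changed 1 of the 14, Egfr, the receptor that tenascin C can engage, at -0.51 log2 (adjusted p = 0.0128). Of all genes 0.330% were higher and 1.22% lower there. In siPDCD5 cells TGF-β1 raised 6 and lowered 1, against 8.50% and 7.61% of all genes. Knockdown without TGF-β1 left 1 higher and 3 lower, against 0.901% and 2.54%. The list's median was 0.46 after TGF-β1 in NC cells, where that of all genes was 0.0050, and -0.22 between the treated groups, where it was -0.017.

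Of 24 matrix partners, collagens and the enzymes and proteoglycans that work with these proteins, 21 were tested. TGF-β1 in NC cells raised 16 of them and lowered 4, against 8.57% and 6.77% of all genes. Among them Col1a2 rose by 2.78 log2, Col1a1 by 1.17, Col5a1 by 1.55 and Lox, the collagen cross-linking enzyme, by 1.74. Bgn rose by 2.35, Vcan by 1.46 and Lrrc32, which holds latent TGF-β on the cell surface, by 2.99. Dcn, the collagen-binding decorin, changed by -2.08 and Mmp3 by -2.53. Lrrc32 and Bgn rest on low levels, so the sizes of their rises are uncertain. Mean Lrrc32 was 0.203 CPM in NC, under the NC library floors of 0.223 to 0.230 CPM. It was 1.67 CPM in NC + TGF-β1 (SE of the log2 value 0.63). Mean Bgn was 0.732 CPM in NC and 3.77 in NC + TGF-β1 (SE 0.42). Knockdown in treated cells left 5 lower and 1 higher, against 1.22% and 0.330% of all genes. The 5 were Col5a2 at -0.82 (adjusted p = 0.00525), Col4a1 at -0.52 (0.0257), Col4a2 at -0.44 (0.00925), Col1a1 at -0.43 (0.0455) and Loxl2 at -0.48 (0.0491), and Dcn was higher by 0.88 (5.44e-04). In siPDCD5 cells TGF-β1 raised 14 partners and lowered 4, against 8.50% and 7.61% of all genes. Knockdown without TGF-β1 left 2 partners higher and 6 lower, against 0.901% and 2.54%. The median of the 21 was 0.69 after TGF-β1 in NC cells and -0.25 between the treated groups. Of the 14 relatives of the members 3 were tested, and in NC cells Fstl1, a SPARC relative, rose by 1.94 log2 and Stab1, a receptor for SPARC, by 1.33, with no call between treated groups. Of 13 known TGF-β targets, such as Smad7 and Pmepa1, 9 rose and 3 fell in NC cells with TGF-β1, against 8.57% and 6.77% of all genes. Between the treated groups 0 of the 13 changed. With only 0.330% of all genes called higher and 1.22% lower there, 0 calls among 13 genes say little about these targets. Knockdown without TGF-β1 left 4 of the 13 targets lower and 0 higher, against 2.54% and 0.901% of all genes. The 4 were Smad7, Ltbp2, Id1 and Id2, named after their values were seen. Knockdown without TGF-β1 also left 1 of the 3 tested relatives, Fstl1, lower, with the same share of all genes.

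**Figure D4:**
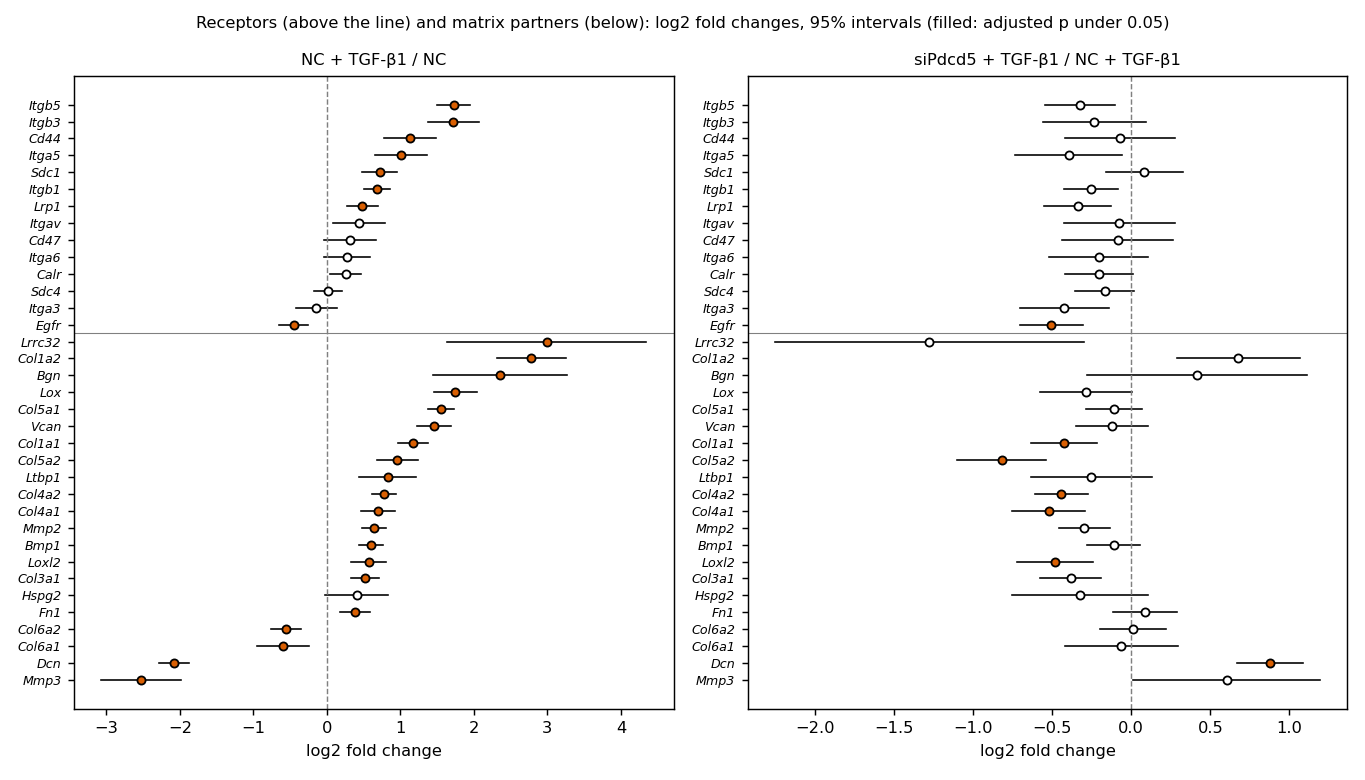
log2 fold changes with 95% intervals for 14 receptor genes (above the line) and 21 matrix partners (below) after TGF-β1 in NC cells (left) and between the treated groups (right), filled where the adjusted p was under 0.05; axes differ. Left, 23 genes rose and 5 fell; right, Egfr, Col5a2, Col4a1, Col4a2, Col1a1 and Loxl2 were lower and Dcn higher.

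The genes whose log2 CPM over the 12 libraries was most like each member's, by Pearson r among 9127 genes of mean log2 CPM of at least 3, were Foxq1 (0.995), Lamb3 (0.993) and Ldlrad4 (0.990) for Postn, and Acta2 (0.987), Fndc3b (0.987) and Sec63 (0.985) for Tnc. For Thbs1 they were the collagen genes Col5a2 (0.993) and Col3a1 (0.991), and Prrc1 (0.975). Plec, Mlec and Ccdc47 led for Sparc (0.990, 0.987 and 0.980) and Net1, St3gal4 and Fam107b for Spp1 (0.993, 0.993 and 0.984), while no gene reached 0.86 for Thbs3, where A630072M18Rik gave 0.858. The 12 libraries fall into 4 groups, so these values mostly describe the pattern over the groups and carry no test.

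Markers of other cell types were read beside the members. The 7 smooth muscle markers summed to 529 to 580 CPM in NC, 1472 to 1586 in NC + TGF-β1, 249 to 302 in siPdcd5 and 784 to 813 in siPdcd5 + TGF-β1, mostly from Acta2, the order that Tnc and Thbs1 also had apart from the NC and siPdcd5 + TGF-β1 overlap. The 13 fibroblast markers summed to 8063 to 8259, 5902 to 6366, 5726 to 6276 and 4760.4 to 4837 CPM in the same groups. Most of each sum came from S100a4, at 3360 to 6250 CPM, and Vim, at 1130 to 2450. Pdgfrb lay at 11.3 to 40.7 CPM and Prrx1 at 18.1 to 53.3. Lum had at most 1 count in a library, Fap at most 4, and Tcf21 0. Of the 8 tested, TGF-β1 in NC cells raised 2 and lowered 3, against 8.57% and 6.77% of all genes. Epithelial markers, almost wholly Krt8 and Krt18, summed to 549 to 700.2 CPM without TGF-β1 and 1243 to 1679 with it. Epcam, Esrp1 and Grhl2 had at most 2 counts in any library, and Cdh1 lay at 1.91 to 4.03 CPM. Of the 4 tested, TGF-β1 in NC cells raised 2 and lowered 0, against 8.57% and 6.77% of all genes. The macrophage markers summed to 13.8 to 24.9 CPM and the endothelial markers to 0.804 to 2.48. The part of these cell markers in the members' results was not tested.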

How the data were processed

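RNA of 12 C22 libraries was prepared with a QuantSeq 3′ mRNA-seq kit. Per the study's methods, reads were aligned with Bowtie2 and counted per gene from unique and multiple alignments with Bedtools; the submitters' processing notes name mm10. The authors deposited whole-number counts per gene symbol, 23282 in each library, of which 44 repeat a symbol. Use of strand is not given in the sources used here, and reads carry no molecular identifiers, so floors and intervals cover counting error only.

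The counts were analysed with R 4.3.3 and edgeR 4.0.16: default filter over the 12 libraries (12425 genes), TMM factors, 1 fit of the 4 groups, quasi-likelihood tests by contrast, and Benjamini-Hochberg adjustment over all genes tested, with a threshold of 0.05. SEs and 95% intervals come from the same fit. The code was tested on simulated data with known changes. The members and lists were chosen with earlier results of these data known. Partner genes were named where the adjusted p was under 0.05 between treated groups, or where it was and the log2 fold change exceeded 1 in size in NC cells; likeness took 3 genes per member. Positions come from GENCODE M21.

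Alternatives were DESeq2 1.42.0, limma 3.58.1 after quantile normalization, upper-quartile factors, no filter, at least 10 counts in every library, a replicate block, the 6 libraries compared, and each library left out. The replicate numbers come from the labels, which name no shared culture or day. Deviations from group means correlated between same-numbered libraries at 0.15 to 0.32 for NC and NC + TGF-β1, and at -0.55 to -0.11 for the treated groups. They correlated at -0.18 to 0.28 for the siPDCD5 groups and at -0.05 to 0.03 for the untreated groups. For NC + TGF-β1 and siPdcd5 the range was -0.54 to 0.56, and for NC and siPdcd5 + TGF-β1 it was -0.27 to 0.06.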

Additional observations from a re-analysis of the deposited data

How the results depend on the processing

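Of 575 values of single members under the alternatives, 535 kept direction and side of the threshold, 17 lost their call, 3 gained one and 20 changed sign. Where the cause of a change below is not the number of genes or libraries, it was not tested. The 3 gains were Sparc without NC + TGF-β1 replicate 2 between treated groups and, against NC, Sparc with quantile normalization and limma-trend or with the 6 libraries alone. Among treated cells the members changed by knockdown numbered 3 in the analysis as reported, 1 with the 6 libraries alone and 1 to 4 when single libraries were left out, with 1 left (Tnc) without siPdcd5 + TGF-β1 replicate 2 or 3.

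Counts of all genes moved more. Knockdown without TGF-β1 gave 427 genes, 714 with DESeq2 and 175 to 326 when single libraries were left out. Knockdown with TGF-β1 gave 192, 458 with DESeq2, 107 with the replicate block, 43 with the 6 libraries alone and 74 to 326 when single libraries were left out, and quantile normalization together with limma-trend in place of edgeR turned 41 higher and 151 lower into 51 and 110. Treated siPDCD5 cells against NC gave 4273 with the 6 libraries alone. The difference of responses gave 13 genes with DESeq2 and 0 to 2 when single libraries were left out.

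Sign changes met differences near 0. Without TGF-β1, Spp1 became 0.0013 with upper-quartile factors and 0.0071 with quantile normalization and limma-trend, and -0.11 to 0.0495 with single libraries left out, Thbs2 ranged from -0.43 to 0.18 and Postn from -0.34 to 0.0791. Thbs3 ranged from -0.0351 to 0.25 after TGF-β1 in siPDCD5 cells and from -0.18 to 0.10 between treated groups, and Pdcd5 from -0.0473 to 0.0520 after TGF-β1 in NC cells. The Sparc difference of responses became 0.0041 with no filter and 0.011 with the replicate block, and -0.20 to 0.22 with single libraries left out. The block ended no call on a member. Whether same-numbered libraries share anything beyond the number is not known for any pair of groups. Thbs2 and Tgfbi rest on few counts, and Thbs2 could not be tested at 10 counts per library.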
